A study of Epimedium pubescens with 12 samples.

Results

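Autophagy, senescence and vacuolar protease genes were examined in leaves of Epimedium pubescens, a medicinal herb of the barberry family, as 168 of the 53813 genes in the deposited count table. They were chosen by annotation only. A gene was taken where its description names autophagy, senescence, a metacaspase, a cysteine protease or proteinase, a vacuolar-processing enzyme or a thiol protease. It would have been left out where the table puts it in a transcription factor family, which removed 0 genes. Of the 168 genes, 158 belong to the reference annotation and 10 are genes that the authors' transcript assembly added, called assembled below. Among all 168 genes, 5 carry the name of a different protein (a mitogen-activated protein kinase kinase or NADPH-cytochrome P450 reductase) and were matched only because their description also lists a papain domain.

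The seedlings were grown in sand and watered with nutrient solution holding either no phosphate (-P, 0 mmol/L) or sufficient phosphate (+P, 1 mmol/L). Leaves were taken after 30 or 90 days. RNA was sequenced from 3 libraries in each of 4 groups (90d -P and 90d +P, then 30d -P with 30d +P), 12 in all, with replicates lettered A to C. The plants were seedlings collected from cultivation and carried no stated genetic change. The samples were leaves, which hold many cell types, so that fewer cells of a type and less RNA per cell cannot be told apart in any value below. Labels do not say whether a library came from 1 plant or several, so p-values measure the spread between these libraries.

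Autophagy delivers parts of the cytoplasm to the vacuole. The ATG1 kinase complex starts it, ATG9 and ATG2 supply membrane, the ATG5, ATG12 and ATG16 conjugate attaches ATG8 to the membrane, and ATG4 trims and recycles ATG8. In the vacuole, papain-type cysteine proteases of the aleurain, cathepsin B, RD19 and RD21 kinds digest protein. Vacuolar-processing enzymes mature other vacuolar proteins, and cystatins inhibit papain-type enzymes. Metacaspases are cysteine proteases linked to programmed cell death, and OTU enzymes are cysteine proteases that remove ubiquitin. In ageing or nutrient-starved leaves of many plants this machinery returns nitrogen and phosphorus to growing organs.

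The total count was 14756971 to 18153463 per library. Summed FPKM (read counts scaled by gene length and by library size, as the authors computed it) of 67 leaf mesophyll marker genes was 36876 to 66370 in 90d -P, 32472 to 60863 in 90d +P, 62058 to 74442 in 30d -P and 66300.3 to 101272 in 30d +P leaves. Root endodermis markers, 3 genes, summed to at most 0.194 FPKM, and 49 seed protein genes summed to 3.91 to 18.9 FPKM in any library. Mesophyll marker ranges reached lower at 90d than at 30d at both phosphate levels, and their part in the comparisons of the ages below was not tested.

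Only 81 of the 168 genes had enough reads to be tested, among 24307 tested genes in the table. By role, 28 of 85 papain-type cysteine proteases, 28 of 43 autophagy genes, 9 of 11 senescence-associated genes, 10 of 11 OTU and calpain proteases, 3 of 6 metacaspases, both vacuolar-processing enzymes and 1 of 10 cysteine protease inhibitors passed. The other 87 genes were at or near 0, and 54 of them had no read in any of the 12 libraries.

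**Figure D1:**
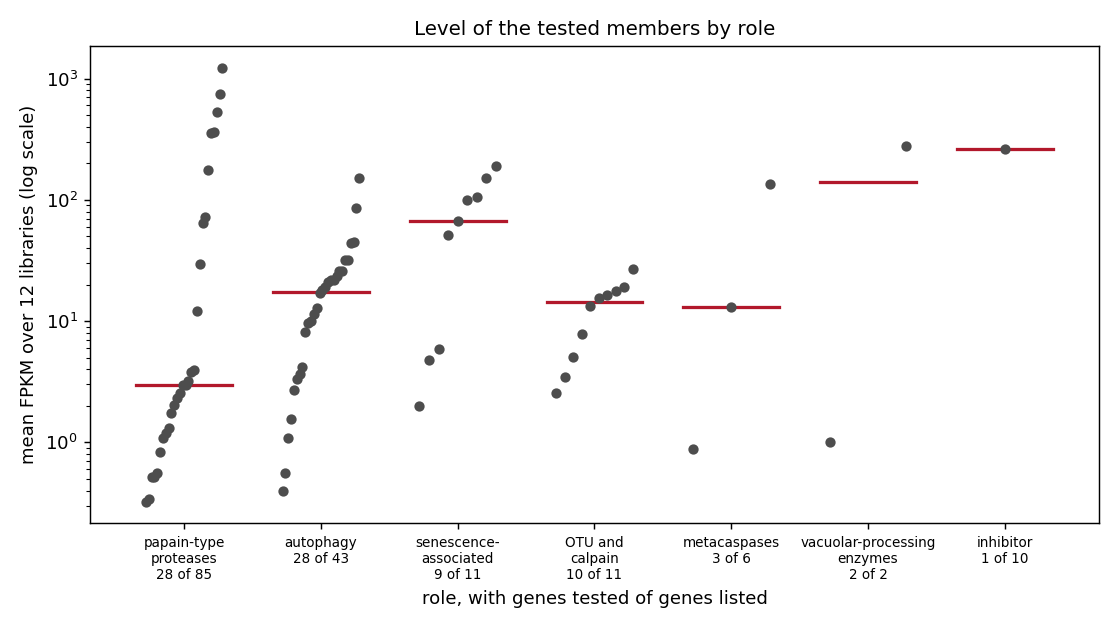
Mean FPKM over the 12 libraries (log scale) of each tested gene by role; points are genes, red lines are medians, and the axis gives genes tested of genes listed. Papain-type proteases span 0.324 to 1232 FPKM, and the tested autophagy genes have a median of 17.5 FPKM.

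Many of the silent genes lay in runs on the chromosomes. The SAG12 and SAG39 names, given to a cysteine protease that marks senescing leaves in Arabidopsis and rice, were held by 31 genes, and 1 of these was tested. That gene, an assembled SAG39 gene (chromosome 3, 213437097 to 213445235), averaged 1.89 ± 1.11 FPKM in 90d -P, 2.37 ± 0.276 in 90d +P, 2.62 ± 1.31 in 30d -P and 2.40 ± 0.357 in 30d +P leaves (SD, n = 3), and its groups overlapped in every comparison. The other 30 had 16 reads together over the 12 libraries and 26 had none. A run of 11 SAG39 genes on chromosome 3 (212201205 to 212410544) had 0 reads, which allows up to 3 reads per library for each. All 8 genes named cysteine proteinase inhibitor 5, in 2 runs on chromosome 6 (436223946 to 436338126 and 437608518 to 437938253), had 0 reads too. Coordinates are those of the authors' tables, and reads of near-identical neighbours could have been split or dropped in counting, so the level of a single gene in such a run is uncertain.

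A few genes carried much of the signal. By mean FPKM over the 12 libraries, aleurain-like protease Ebr02G027000 alone held 21.4% of the summed FPKM of the 168 genes. The top 4, all papain-type, held 49.7%. Aleurain-like proteases are vacuolar thiol proteases first described in barley. Ebr02G027000 had 950.3, 1321 and 2525 FPKM in 90d -P leaves, 1551, 1221 and 1496 in 90d +P, 626, 1016 and 996 in 30d -P, and 1268, 979 and 834 in 30d +P leaves. The highest library was 90d -P replicate C and the lowest 30d -P replicate A. The -P groups of the 2 ages overlapped, with 950.3 FPKM in the lowest 90d library against 1016 in the highest 30d library.

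Next in level came cysteine proteinase 15A (Ebr04G074500, mean 739.9 FPKM), the RD19A protease known from drought-stressed Arabidopsis (Ebr05G025550, 533 FPKM), an RD21B protease (Ebr05G032740, 362 FPKM) and cathepsin B-like protease 2 (Ebr01G016490, 358 FPKM). The main vacuolar-processing enzyme Ebr05G015910 averaged 279.6 FPKM, while the second, Ebr05G055090, averaged 0.999 FPKM and overlapped between the groups in every comparison. Ebr01G038010, the inhibitor CYT12 and the only inhibitor tested, averaged 264.6 FPKM, a difference from Ebr05G015910 that is within their spread over libraries (SD 53.5 and 51.0 FPKM). Among autophagy genes, the ATG8 genes led: ATG8C Ebr06G052430 averaged 150.2 FPKM, the second ATG8C Ebr03G026970 averaged 85.8, ATG8I Ebr02G004040 averaged 44.6 and ATG8F Ebr04G014220 averaged 44.0. Other steps of autophagy were represented by ATG4 (Ebr06G018140, 23.5 FPKM), ATG18D (Ebr06G002320, 31.7 FPKM), ATG13 (Ebr04G017230, 19.1 FPKM), ATG3 (Ebr05G057180, 18.2 FPKM), ATG2 (Ebr05G031250, 11.4 FPKM), ATG16 (Ebr02G051500, 9.65 FPKM), ATG12 (an assembled gene, 8.14 FPKM), ATG5 (Ebr03G038750, 4.22 FPKM) and ATG9 (Ebr04G013330, 3.66 FPKM). Of the senescence-associated genes, a senescence regulator without a gene name (Ebr03G026160) was highest with 191 FPKM.

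**Figure D2:**
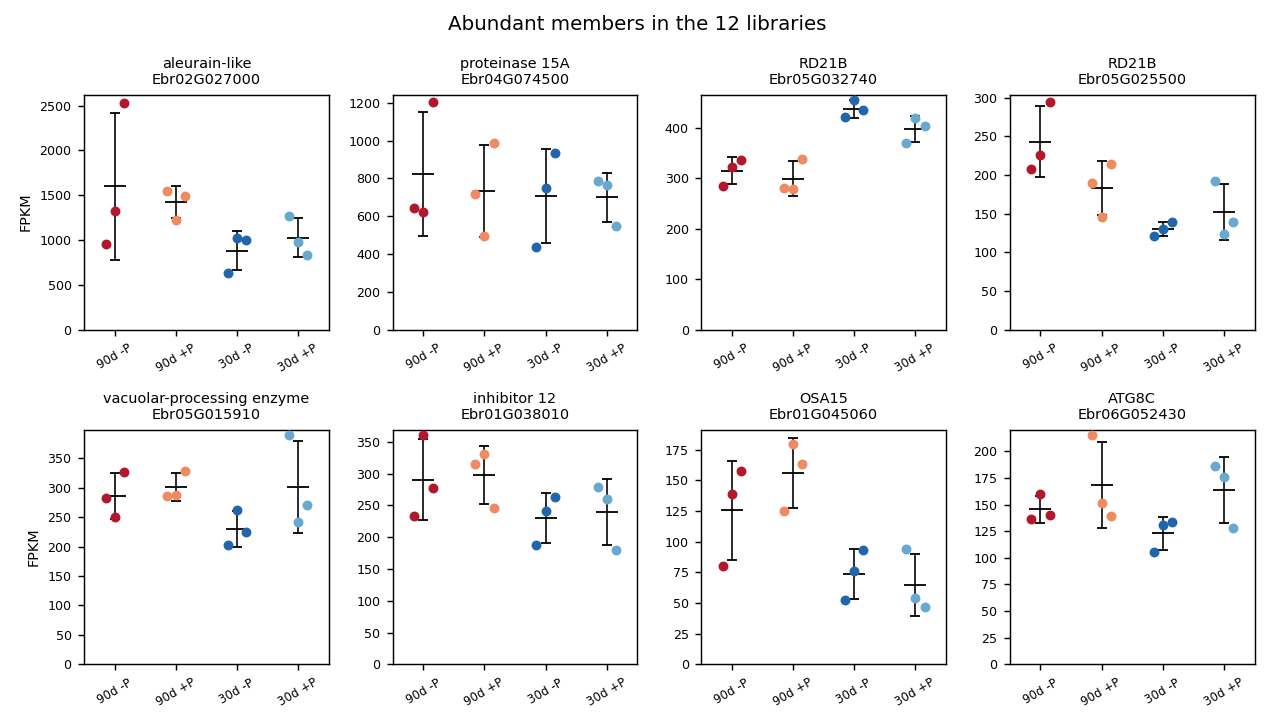
FPKM of 8 abundant genes in each of the 12 libraries; points are libraries, horizontal marks and bars are the mean and SD of 3 libraries, and the groups run from 90d -P to 30d +P. The aleurain-like protease and the senescence protein OSA15 sit higher at 90d than at 30d in most libraries, while the RD21B genes Ebr05G032740 and Ebr05G025500, plotted out of 5 tested, differ in opposite directions between 90d -P and 30d -P.

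The first question was what phosphate shortage does at each age. At 30 days, 0 of the 81 tested genes passed the threshold of an adjusted p of at most 0.05 and a log2 fold change of at least 1 in size in edgeR's quasi-likelihood test of 30d -P against 30d +P, and 0% of all 24307 tested genes did. At an unadjusted p under 0.05 stood 6 of the 81 genes, against 7.2% of all genes. The groups did not overlap for 12 of the 81 genes (14.8%), 4 higher and 8 lower in -P, and for 15.2% of all genes (6.82% higher and 8.34% lower). The median log2 fold change of the 81 was -0.07, beside -0.01 over all tested genes.

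SEN102 (Ebr06G057030), a thiol protease named after a senescence gene of daylily, had the lowest unadjusted p of the 81 genes at 30d (0.00443). It had 10.5, 8.54 and 7.99 FPKM in 30d -P leaves, against 44.6, 24.96 and 20.99 FPKM in 30d +P leaves. All 3 -P libraries lay below all 3 +P libraries. The log2 fold change was -1.77 with a standard error of 0.49 and edgeR's adjusted p was 0.61. DESeq2 on these 6 libraries, the tool the authors used, gave an adjusted p of 0.00146 and called 2 of 109 tested members, against 1.6% of all genes it tested. At 90d the same gene had 38.9, 27.4 and 10.9 FPKM in 90d -P against 75.4, 53.4 and 30.5 FPKM in 90d +P leaves. These ranges overlapped (log2 fold change -1.03, standard error 0.48, edgeR's adjusted p 0.84). Pooled over both ages its log2 fold change was -1.40 with a standard error of 0.34 and edgeR's adjusted p of 0.25.

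The other gene DESeq2 called at 30d was an assembled RD21A gene (chromosome 2, 294337721 to 294359431). Its counts were 26, 40 and 39 in 30d -P leaves and 275, 144 and 98 in 30d +P leaves, without overlap. Its log2 fold change was -2.34 (standard error 0.77), with an adjusted p of 0.65 in edgeR and 7.08e-04 in DESeq2. At 90d it ranged widely within each group, with counts of 180, 189 and 22 in 90d -P and 38, 103 and 189 in 90d +P leaves.

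ATG8C Ebr03G026970 had 63.2, 76.9 and 76.4 FPKM in 30d -P leaves and 93.3, 112 and 90.0 FPKM in 30d +P leaves, again without overlap (log2 fold change -0.46, standard error 0.18, adjusted p 0.68 in edgeR). Its paralogue Ebr06G052430 had 105, 131 and 133 FPKM in 30d -P and 186, 176 and 128 FPKM in 30d +P leaves, which overlapped at 1 library (log2 fold change -0.42, adjusted p 0.71 in edgeR). The ubiquitin-like ATG8 is the protein that coats the growing membrane. Of the other tested ATG8 genes, ATG8I Ebr02G004040 had -0.46 without overlap, and ATG8F Ebr04G014220 and Ebr04G014550 had -0.13 and 0.007 with overlap. Across the 28 tested autophagy genes the median log2 fold change at 30d was -0.06 (lowest -0.92, highest 0.68), and 12 were above 0 and 16 below. Without overlap 3 were lower and 1 higher, beside 8.34% and 6.82% of all genes. The higher one was ATG9 Ebr05G019310 (log2 fold change 0.68, standard error 0.28, adjusted p 0.68 in edgeR).

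At 90 days, 0 of the 81 genes passed in 90d -P against 90d +P, and 0% of all tested genes did. An unadjusted p under 0.05 was reached by 6 of the 81 and by 5.88% of all genes, and the groups did not overlap for 7, 3 higher and 4 lower (8.64%), and for 8.92% of all genes (4.43% higher and 4.49% lower). The 28 autophagy genes ran from -0.88 to 0.29 in log2 fold change, with a median of -0.11. The highest, ATG16 (Ebr02G051500), had 12.3, 12.2 and 10.5 FPKM in 90d -P against 9.78, 10.2 and 8.87 in 90d +P leaves (0.29, standard error 0.29). Next to it, Ebr06G020660, an ATG27 domain gene, had a log2 fold change of 0.29 too (standard error 0.27), and neither gene's groups overlapped. Neither vacuolar-processing enzyme passed: Ebr05G015910 had 283, 249.6 and 327 FPKM in 90d -P against 287, 289 and 329 FPKM in 90d +P leaves, and the groups overlapped.

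The log2 fold change farthest from 0 at 90d was that of an assembled gene (chromosome 2, 432109544 to 432115971) named for another protein, NADPH-cytochrome P450 reductase, and matched through its papain domain (-8.999, standard error 1.98). It had 0, 1 and 0 reads in 90d -P leaves and 154, 164 and 465 reads in 90d +P leaves. In 30d leaves it was uneven, with 129, 61 and 0 reads in -P and 353, 83 and 40 in +P. Reads summed over libraries and set against depth were 716.9 times higher in 90d +P than in 90d -P (95% interval 128.3 to 28350, covering counting error only). edgeR gave an adjusted p of 0.51 and DESeq2 on the 6 libraries an adjusted p of 1.16e-08, where 1 of 108 members and 0.512% of all genes were called. An opposite gap belonged to an assembled gene on chromosome 4 (35726176 to 35727413), annotated with papain and granulin domains, which had 4, 5 and 35 reads in 90d -P against 0, 0 and 1 in 90d +P leaves, and 20, 18 and 19 in 30d -P against 7, 0 and 2 in 30d +P leaves. Its ranges were apart at both ages, higher in -P, but its adjusted p in edgeR was 0.78 at 90d and 0.70 at 30d. It passed the read filter only through -P libraries, so its being higher in -P was not independent of that filter. Another assembled gene, RDL1, named after a germination-specific cysteine protease of Arabidopsis, had 10, 1 and 4 reads in 90d -P against 71, 14 and 65 in 90d +P leaves (log2 fold change -3.19, standard error 1.17, adjusted p 0.84 in edgeR), and 77, 22 and 32 in 30d -P leaves, also all above 90d -P.

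Averaged over both ages, -P against +P gave 0 calls among the 81 genes in edgeR, beside 0.00411% of all genes, with 5 of them at an unadjusted p under 0.05, against 10.8% of all genes. DESeq2 on all 12 libraries called 3 of them, with SEN102 and the assembled reductase-named gene lower and the granulin-domain gene higher in -P, and called 1.64% of all genes it tested.

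OTU3 (Ebr04G066510, chromosome 4, 515207593 to 515267504), an enzyme that removes ubiquitin from proteins, had differences with phosphate of opposite sign at the 2 ages. It had 12.9, 10.7 and 7.77 FPKM in 90d -P, 8.37, 6.39 and 4.53 in 90d +P, 4.85, 4.73 and 5.04 in 30d -P, and 11.2, 8.81 and 8.28 FPKM in 30d +P leaves. The -P libraries were all below the +P libraries at 30d (log2 fold change -0.97, standard error 0.29). At 90d -P was higher on average (log2 fold change 0.71, standard error 0.29) and the ranges overlapped. The difference between these, the interaction of phosphorus and time, was 1.68 on the log2 scale with a standard error of 0.41, an unadjusted p of 0.00186 and an adjusted p of 1.0 in edgeR. In the interaction, 0 of the 81 genes and 0% of all genes were called, and 5 of the 81 and 2.97% of all genes had an unadjusted p under 0.05. DESeq2 on 12 libraries also called 0 members, beside 0.0889% of all genes it tested, and OTU3 had an adjusted p of 0.0777 there.

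The second question was how the leaves differed between 90 and 30 days. In 90d -P against 30d -P leaves, 2 of the 81 genes were called, 1 higher (OTU3) and 1 lower (CEP1), while 5.58% of all tested genes were called (1.63% higher and 3.95% lower). In 90d +P against 30d +P leaves, 1 of the 81 was called, metacaspase-1, lower at 90d, while 3.02% of all tested genes were called (0.843% higher and 2.18% lower). At an unadjusted p under 0.05 were 19 and 10 of the 81, beside 25.4% and 22.1% of all genes. The groups did not overlap for 24 of the 81 in -P, 11 higher and 13 lower (29.6%, beside 33.3% of all genes, 15.3% higher and 18% lower), and for 16 in +P, 6 higher and 10 lower (19.8%, beside 26% of all genes, 11.7% higher and 14.3% lower). DESeq2 on the 6 libraries of each comparison called 8 of 109 members in -P and 4 of 107 in +P, where it called 9.22% and 6.1% of all genes it tested.

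**Figure D3:**
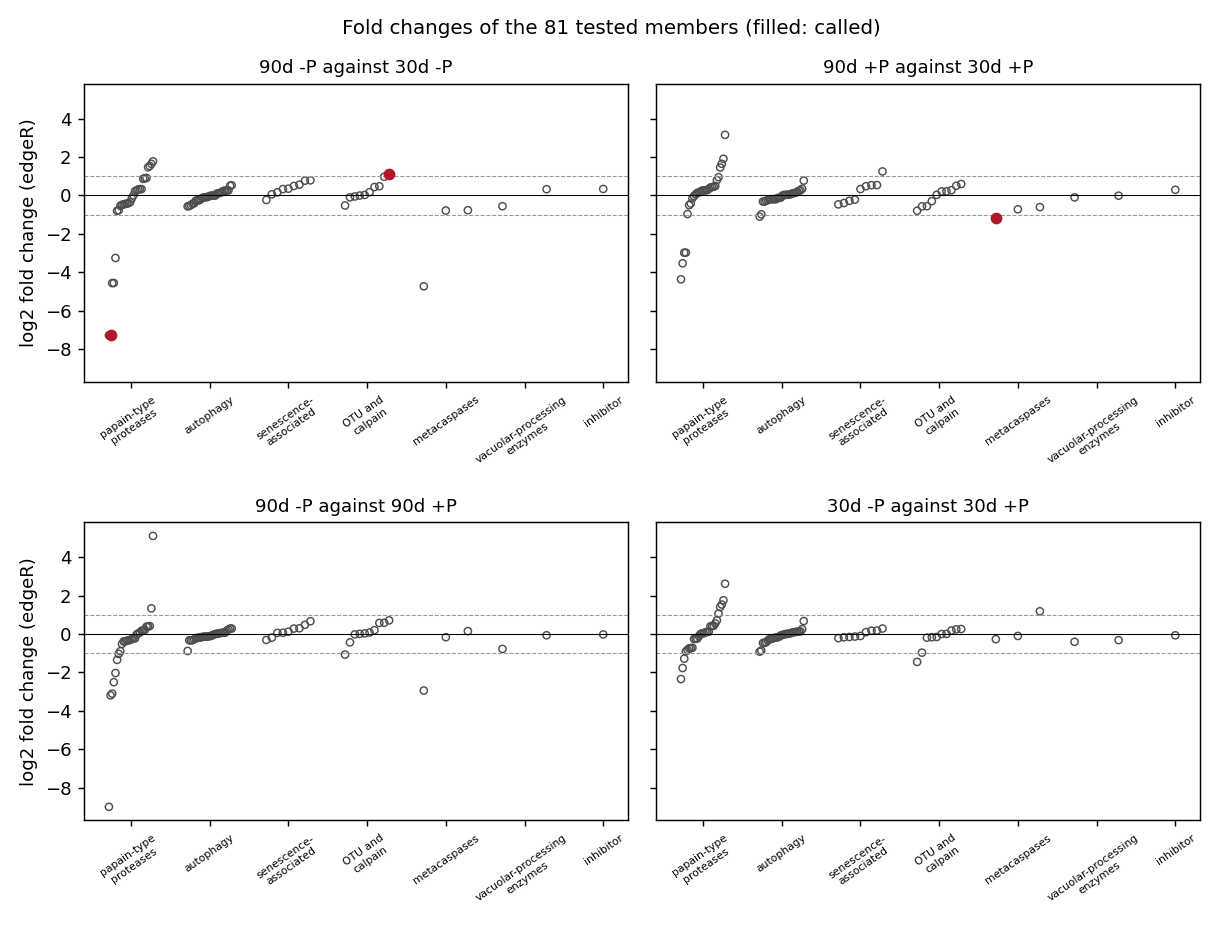
Log2 fold change from edgeR of each of the 81 tested genes by role, in 90d against 30d leaves (top, -P left and +P right) and in -P against +P leaves (bottom, 90d left and 30d right). Filled points passed the threshold, dashed lines mark a log2 fold change of 1 in size; the filled points are CEP1, OTU3 and metacaspase-1, and the assembled reductase-named gene (-7.29, open) lies under the point of CEP1 (-7.26) in the first panel.

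Among the lowest log2 fold changes at 90d were those of 4 genes whose Arabidopsis namesakes act in cells that die as they mature, and of these CEP1 was called. CEP1 (Ebr03G065760, chromosome 3, 540922635 to 540924025), an endopeptidase with an endoplasmic reticulum retention tail, had no read in any of the 3 90d -P libraries, against 12, 24 and 18 reads in 30d -P leaves. Against a floor of 3 reads per library it was at least 6.5-fold lower at 90d (edgeR's adjusted p 0.0329). CEP1 had 71 reads in all and passed the read filter only through its 30d -P libraries, the group where it was highest. Its call as lower in 90d -P was therefore not independent of that filter. In +P leaves CEP1 had 0, 0 and 2 reads at 90d and 3, 5 and 7 at 30d (log2 fold change -2.99, standard error 1.18, adjusted p 0.18 in edgeR).

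XCP2 (Ebr05G036910) and XCP1 (Ebr04G047130) are named after xylem proteases that digest the contents of water-conducting cells in Arabidopsis. XCP2 had 51, 30 and 2 reads in 90d -P and 2, 6 and 63 in 90d +P, against 212, 1127 and 493 in 30d -P and 101, 162 and 397 in 30d +P leaves. XCP1 had 1, 11 and 0 reads in 90d -P and 0, 0 and 5 in 90d +P, against 79, 142 and 47 in 30d -P and 16, 29 and 44 in 30d +P leaves. For both genes, every 90d library was below every 30d library. XCP1 passed the read filter only through its 30d libraries, so its lower level at 90d was not independent of that filter. At 30d, CEP1 and XCP1 were also higher in every -P than in every +P library (log2 fold changes 1.76 and 1.54, standard errors 1.02 and 1.21, adjusted p 0.77 and 0.85 in edgeR). CEP1 passed the read filter only through 30d -P, so its being higher there was not independent of that filter either. The log2 fold changes of XCP2 were -4.57 (standard error 1.29) in -P and -3.54 (1.24) in +P, and those of XCP1 were -4.57 (1.40) and -4.38 (1.45), with adjusted p of 0.06 to 0.13 in edgeR and of 5.88e-05 to 0.0195 in DESeq2 on 6 libraries.

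Metacaspase-9 (Ebr03G053330), a xylem metacaspase in Arabidopsis, had 5, 3 and 0 reads in 90d -P and 0, 2 and 70 in 90d +P, against 38, 113 and 55 in 30d -P and 28, 14 and 46 in 30d +P leaves. One library, 90d +P replicate C, held nearly all reads of its group. That library also held all 90d +P reads of CEP1 and XCP1 and most of those of XCP2. With single libraries left out, the +P log2 fold changes between the ages ran from -5.48 to -2.48 for CEP1, -8.02 to -3.82 for XCP1 and -6.02 to -2.85 for XCP2. The log2 fold change of metacaspase-9 was -4.74 in -P (standard error 1.67, adjusted p 0.11 in edgeR) and -0.61 in +P, and the +P value became -4.98 without 90d +P replicate C. Metacaspase-9 also passed the read filter only through its 30d libraries, so its lower level at 90d in -P was not independent of that filter. Over the 12 libraries the log2 levels of these 4 genes correlated pairwise with Pearson's r between 0.81 and 0.94, given as a description, since the libraries share their groups. The 4 genes were also put together for their low values at 90d, a choice that favours a high r.

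**Figure D4:**
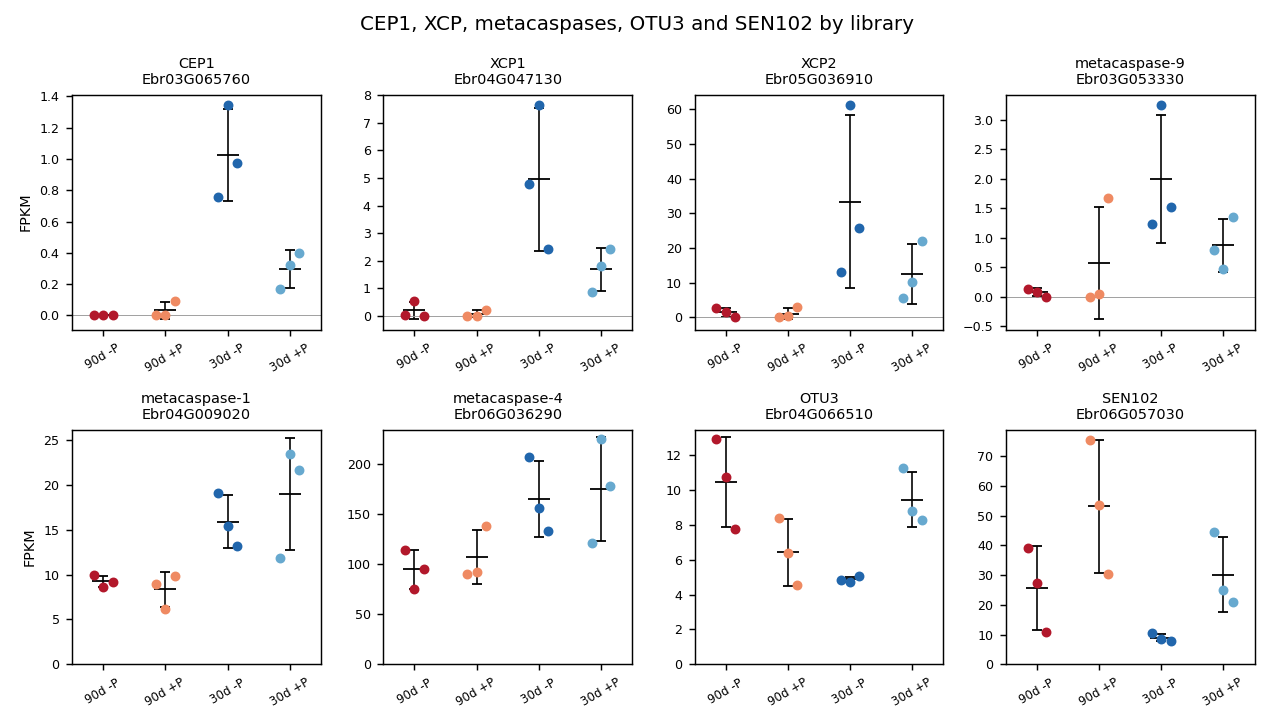
FPKM of CEP1, XCP1, XCP2, metacaspases-9, -1 and -4, OTU3 and SEN102 in each of the 12 libraries; points are libraries, horizontal marks and bars are the mean and SD of 3 libraries. For CEP1, XCP1 and XCP2 all 90d libraries lie below all 30d libraries of the same phosphate level, and 90d +P replicate C stands out for metacaspase-9.

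The other tested metacaspases were more abundant by FPKM and averaged lower at 90d. Metacaspase-1 (Ebr04G009020), whose Arabidopsis namesake promotes cell death in immunity, had 9.91, 8.59 and 9.22 FPKM in 90d -P and 9.01, 6.16 and 9.89 in 90d +P, against 19.1, 15.5 and 13.2 in 30d -P and 11.8, 23.5 and 21.6 in 30d +P leaves. No 90d library reached the lowest 30d library. It fell in +P, with a log2 fold change of -1.20 (standard error 0.28, edgeR's adjusted p 0.0443), and in -P the value was -0.78 (0.27, adjusted p 0.11). Metacaspase-4 (Ebr06G036290), a calcium-activated metacaspase in Arabidopsis, had 114, 74.6 and 94.6 FPKM in 90d -P and 90.2, 92.0 and 138 in 90d +P, against 206, 155 and 133 in 30d -P and 121, 224 and 178 in 30d +P leaves. Its log2 fold changes were -0.79 in -P and -0.73 in +P (standard error 0.28 each), with adjusted p of 0.11 and 0.16 in edgeR.

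OTU3 rose at 90d in -P leaves, with the values given above and no overlap (log2 fold change 1.11, standard error 0.29, edgeR's adjusted p 0.0483), and in +P its log2 fold change was -0.57 with an adjusted p of 0.27. The calls of CEP1, OTU3 and metacaspase-1 all stood near the threshold: leaving out each of the 12 libraries in turn ended them in 8, 10 and 11 of 12 fits, with adjusted p up to 0.11, 0.15 and 0.18. Their direction did not turn in any of these fits. Of these, the CEP1 call ended without any 1 of the 3 libraries of 90d -P, any 1 of 30d -P, or replicate B or C of 30d +P. The metacaspase-1 call stayed only without replicate A of 30d +P, and the OTU3 call only without that library or replicate C of 90d +P.

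RD21B proteases, dehydration-responsive vacuolar enzymes in Arabidopsis, were held by 6 genes, 5 of them tested. Between the ages in -P leaves, 1 of the 5 was higher without overlap and 3 were lower without overlap, beside 15.3% and 18% of all tested genes. These genes were picked after their values were seen, so the counts are a description only. Ebr05G032740 had 285, 323 and 336 FPKM in 90d -P against 421, 456 and 435 FPKM in 30d -P leaves, and 280.5, 279 and 339 in 90d +P against 369.8, 419.6 and 403 in 30d +P leaves. Its groups did not overlap at either phosphate level (log2 fold changes -0.47 and -0.43, standard error 0.16 each, adjusted p 0.10 and 0.15 in edgeR). Ebr05G025500 had 208, 226 and 295 FPKM in 90d -P against 121, 129.6 and 139 in 30d -P leaves. Its log2 fold change of 0.90 (standard error 0.23) had an adjusted p of 0.0467 in edgeR but was under the fold threshold of 1, and it was 0.25 (adjusted p 0.59) in +P. Ebr0G012470 had 52.8, 50.8 and 62.2 FPKM in 90d -P against 110.4, 81.5 and 93.8 in 30d -P leaves (log2 fold change -0.78, standard error 0.53, adjusted p 0.39 in edgeR and 0.00456 in DESeq2 on 6 libraries). Ebr04G074130 had 28.6, 75.3 and 59.9 FPKM in 90d -P against 83.5, 78.5 and 77.9 in 30d -P leaves (log2 fold change -0.55, standard error 0.60, adjusted p 0.62 in edgeR). Both overlapped between the ages in +P, and the other tested gene, Ebr04G016470, averaged 0.829 FPKM and overlapped at both phosphate levels.

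The aleurain-like Ebr02G027000, the most abundant gene, was 0.86 higher on the log2 scale at 90d in -P (standard error 0.36, adjusted p 0.17 in edgeR) and 0.45 (0.36, adjusted p 0.52) in +P leaves. SEN102 had a log2 fold change of 1.53 in -P (standard error 0.48, adjusted p 0.08 in edgeR and 0.0256 in DESeq2), with every 90d -P library above every 30d -P library. The reads of all 168 genes together were 0.956 ± 0.193% of the counts in 90d -P, 0.938 ± 0.0321% in 90d +P, 0.723 ± 0.134% in 30d -P and 0.745 ± 0.112% in 30d +P leaves (SD, n = 3 each). These shares overlapped between the ages in -P and did not in +P.

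Of the 9 tested senescence-associated genes, 0 were called by edgeR between the ages, beside 5.58% of all tested genes in -P and 3.02% in +P. With so few genes, 0 calls says little. At each phosphate level 1 of the 9 had an unadjusted p under 0.05, beside 25.4% of all tested genes in -P and 22.1% in +P. In -P, 8 of the 9 tested genes had a log2 fold change above 0, with a median of 0.35, beside 0.03 over all tested genes, and in +P 5 of 9 did, with a median of 0.33. OSA15 (Ebr01G045060), named after a chloroplast protein linked to leaf senescence in rice, had 80.0, 139 and 158 FPKM in 90d -P and 125, 179.7 and 164 in 90d +P, against 52.3, 76.3 and 92.8 in 30d -P and 93.7, 54.0 and 46.5 in 30d +P leaves. Its groups were apart in +P, where the log2 fold change was 1.24 (standard error 0.35) with an adjusted p of 0.0753 in edgeR and 0.0109 in DESeq2, and overlapped in -P. DIN1 (Ebr04G059390), the dark-inducible senescence protein, had 110.3, 155 and 129 FPKM in 90d -P against 65.6, 70.0 and 94.2 in 30d -P leaves, without overlap (log2 fold change 0.78, standard error 0.28, adjusted p 0.11 in edgeR). In +P its groups overlapped (0.33, adjusted p 0.55 in edgeR). Other genes lay lower at 90d. Ebr06G006930 was lower in +P without overlap (log2 fold change -0.47, standard error 0.36, adjusted p 0.50 in edgeR) though 0.35 in -P. SDEH4 (Ebr05G014660) had -0.24 in -P and -0.40 in +P, with overlap.

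The senescence regulator Ebr03G026160 had 237, 233 and 206 FPKM in 90d -P against 206, 139 and 142 in 90d +P leaves, where the lowest -P and the highest +P library had about the same level (log2 fold change 0.48, standard error 0.21, adjusted p 0.84 in edgeR). Its 90d -P libraries were also all above those of 30d -P, at 155, 198 and 188 FPKM (log2 fold change 0.32, standard error 0.20, adjusted p 0.36 in edgeR). In +P its log2 fold change between the ages had the opposite sign and the groups overlapped (-0.29, standard error 0.20, adjusted p 0.46 in edgeR). By log2 level over the 12 libraries, the genes most like it among the tested 81 were OTU3 (r = 0.73), ATG16 Ebr02G051500 (r = 0.61) and the dehydration-responsive ERD7 Ebr04G060930 (r = 0.59), as a description.

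Autophagy genes had 0 calls among the 28 tested in each of the 6 comparisons by edgeR, with 2 genes at an unadjusted p under 0.05 between the ages in -P and 1 in +P, beside 25.4% and 22.1% of all tested genes. Between the ages in -P the lowest log2 fold change was -0.58 and the highest 0.53, with a median size of 0.22, beside 0.58 over all tested genes. In +P they ran from -1.11 to 0.77, with a median size of 0.20 beside 0.54. ATG4 (Ebr06G018140) was at the lower side in -P (log2 fold change -0.42, standard error 0.15, adjusted p 0.13 in edgeR), without overlap of the groups. ATG13 (Ebr05G044580), a regulator of the ATG1 kinase, had 11.5, 16.6 and 10.7 FPKM in 90d +P against 10.1, 4.52 and 7.68 in 30d +P leaves, also without overlap (log2 fold change 0.77, standard error 0.30, adjusted p 0.16 in edgeR). Within groups the coefficient of variation of CPM (counts scaled by library size alone), taken over genes with a mean CPM of at least 10, had a median of 0.158 for 20 autophagy genes, 0.304 for 10 papain-type proteases and 0.211 for all 11193 such genes. The fold sizes above were not matched for level in this way, and such genes were 20 of the 28 autophagy genes but 11193 of all 24307 tested.

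The inhibitor CYT12 overlapped between the groups in every comparison: 234, 360.4 and 278 FPKM in 90d -P, 315, 332 and 245 in 90d +P, 187, 241 and 264 in 30d -P and 279, 259.8 and 180.3 in 30d +P leaves, with adjusted p from 0.44 to 1.0 in edgeR. Among ubiquitin-removing enzymes the most abundant, OTU4 Ebr06G010750, had 25.9, 40.3 and 39.3 FPKM in 90d -P against 27.2, 17.6 and 25.6 in 90d +P leaves (log2 fold change 0.59, standard error 0.26, adjusted p 0.84 in edgeR), with overlapping ranges. OTU5 (Ebr02G062330) had 17.9, 20.4 and 18.8 FPKM in 90d -P and 21.6, 19.0 and 17.5 in 90d +P, against 12.8, 14.6 and 13.8 in 30d -P and 14.8, 13.9 and 11.8 in 30d +P leaves, without overlap between the ages at either phosphate level (log2 fold changes 0.47 and 0.50, adjusted p 0.09 in both by edgeR). OTU4 Ebr06G028440 lay the other way, with 15.8, 10.4 and 17.3 FPKM in 90d -P and 15.6, 12.9 and 14.1 in 90d +P, against 22.0, 19.4 and 21.5 in 30d -P and 21.5, 21.1 and 19.6 in 30d +P leaves (log2 fold changes -0.53 and -0.57, adjusted p 0.12 in both by edgeR).

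The number of these genes called depended on the test. For phosphate at 30d, phosphate at 90d, age in -P and age in +P, DESeq2 on all 12 libraries called 1, 1, 8 and 4. It called 0.732%, 0.646%, 8.43% and 6.2% of all genes it tested in these comparisons. The edgeR likelihood ratio test, run after the data were seen, called 0, 1, 8 and 4 of the 81 genes, beside 0.444%, 0.576%, 11.5% and 8.32% of all genes. Over both ages it called 3 beside 2.66% and in the interaction 0 beside 0.0247%. limma-voom called 0, 0, 4 and 2 of the 81, beside 1.6%, 0%, 9.81% and 8.41% of all genes. It called 0 over both ages beside 0.0165% and 0 in the interaction beside 0%. CEP1 and OTU3 were among the genes called in -P, and metacaspase-1 in +P, by each of these tests.

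Other genes of protein breakdown were read from the same table, 385 genes outside the 168, of which 195 were tested. In both comparisons of -P with +P, 0 of the 195 were called by edgeR, with 15 at an unadjusted p under 0.05 at 90d, beside 5.88% of all genes, and 19 at 30d, beside 7.2%, and other tools were not read for them. In 90d -P against 30d -P, 4 were called higher and 11 lower of the 195, beside 1.63% higher and 3.95% lower of all tested genes, with a median log2 fold change of -0.15 beside 0.03. In 90d +P against 30d +P it was 1 higher and 4 lower, beside 0.843% and 2.18%, with a median of -0.19 beside 0.02. Aspartic proteases, matched by description whether vacuolar or not, had 1 gene higher and 4 lower among 37 tested in -P. Of these, PCS1 (Ebr01G032340), whose Arabidopsis namesake controls cell fate in reproduction, averaged 31.0 ± 13.9 CPM in 90d -P against 166.7 ± 81.1 CPM in 30d -P leaves (SD, n = 3 each). Its log2 fold change was -2.43 (standard error 0.47) with edgeR's adjusted p of 0.0245. In +P leaves PCS1 averaged 26.97 ± 10.98 CPM at 90d and 31.9 ± 4.028 CPM at 30d, and it was not called between the ages. PCS1 was therefore high on average in 30d -P leaves only, and its lower level at 90d was seen in -P only. Serine carboxypeptidases had 3 higher and 4 lower among 71 tested in -P. SCP27 (Ebr01G051660) fell at both phosphate levels, by log2 fold changes of -3.49 each (adjusted p 0.0245 in -P and 0.0306 in +P in edgeR). Vacuolar sorting genes had 0 higher and 2 lower of 44, genes matched to chlorophyll breakdown terms 0 higher and 1 lower of 9, and proteasome subunits 0 of 32 in -P by edgeR, where 5 of the 32 had an unadjusted p under 0.05. The 1 lower gene of those 9, Ebr06G018930, carries the name of a different protein, protochlorophyllide-dependent translocon component 52 (PTC52). Its call is therefore not one of a gene named for chlorophyll breakdown.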

How the data were processed

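RNA-seq of 12 leaf libraries was used as the authors deposited it. Per the study's methods and the submitters' processing notes, reads were aligned with HISAT2 2.0.5, extra transcripts assembled with StringTie 1.3.3b and counted with featureCounts 1.5.0-p3; handling of strand and of reads shared by near-identical genes is not given in the sources used here. The deposited count table holds whole, unnormalized counts, and the authors' FPKM table holds those counts scaled by gene length and by library sizes that size factors had adjusted (tested on the values).

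Counts were fitted with edgeR 4.0.16 (R 4.3.3): TMM, filterByExpr, robust quasi-likelihood, a mean per group over all 12 libraries, Benjamini-Hochberg over 24307 genes, called at adjusted p of at most 0.05 and a log2 fold change of at least 1 in size. A standard error was computed as the size of the estimate divided by the root of its F value. CPM values were scaled by TMM. DESeq2 1.42.0, limma 3.58.1 (voom), other filters and scalings, a replicate block and leaving out libraries were alternatives, and the likelihood ratio test was added after seeing the data. Scripts were tested on simulated data. Total counts were 14756971 to 18153463 per library. p-values measure the spread between libraries, which may be partly technical, and counting intervals cover counting error only.

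The genes, role lists, pathway lists and markers were chosen with earlier results of these data known. ATG8 and ATG12, described as ubiquitin-like, were kept with the autophagy genes. Genes named are those called (up to 6 each way per comparison), the 2 highest and 2 lowest per comparison without overlap and a mean CPM of at least 1 in a group, the most abundant of each role, and all tested metacaspases and vacuolar-processing enzymes, and the 3 most like Ebr03G026160. Others (proteinase 15A, RD19A, the RD21B genes, cathepsin B, further ATG genes, DIN1, OTU5, OTU4 Ebr06G028440 and the pathway genes) were chosen after their values were seen.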

Additional observations from a re-analysis of the deposited data

How the results depend on the processing

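With 0 genes called by the main edgeR test in 30d -P against 30d +P, DESeq2 called 1 on all 12 libraries and 2 on the 6 compared. In 90d -P against 90d +P, also 0, the 2 DESeq2 fits and the added likelihood ratio test called 1 each. In 90d -P against 30d -P, 2 in the main test, no filter on low counts gave 1, both DESeq2 fits and the likelihood ratio test 8, limma-voom 4, and edgeR on the 6 libraries and the replicate block 0, with 0 to 4 when single libraries were left out. In 90d +P against 30d +P, 1 in the main test, the counts were 0 with no filter, 4 in both DESeq2 fits and the likelihood ratio test, 2 in limma-voom, 0 with edgeR on the 6 libraries and with the replicate block, and 0 to 2 when single libraries were left out. Over both ages, 0 in the main test, DESeq2 and the likelihood ratio test called 3. For the fits with no filter, on 6 libraries by edgeR, with the replicate block and with libraries left out, the share of all genes called was not read. Their counts therefore do not show whether these genes lost or gained calls more than others. The deviations of same-lettered libraries correlated with r from -0.186 to 0.23 over 18 pairs, and the 4 pairs above 0.1 all lay between the ages at the same phosphate level. The labels do not say that a letter marks a shared plant or batch, so the letters were not taken as pairs, and whether they mark one was not shown either way. Under the replicate block the adjusted p in edgeR was 0.0726 for CEP1, 0.0737 for OTU3 and 0.0976 for metacaspase-1. The block gave each letter 1 effect shared by all 4 groups, so it did not model letters that pair libraries only within a phosphate level. The cause of the shifts in calls between fits was not tested. Fits on 6 libraries and under the block had fewer residual degrees of freedom, and the part of this was not tested either.

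Direction turned for 16 of the 55 log2 fold changes recomputed, each with a main value that was not called. In limma-voom the log2 fold change in 30d -P against 30d +P was 0.20 for CYT12, 0.11 for the aleurain-like Ebr02G027000, 0.087 for Ebr03G026160 and -0.085 for OTU4 Ebr06G010750, that of Ebr02G027000 in 90d -P against 90d +P was -0.029, and that of Ebr05G015910 in 90d +P against 30d +P was 0.14 (0.0048 with RLE scaling and 0.0036 in DESeq2 on 12 libraries). Leaving out single libraries gave, in 30d -P against 30d +P, -0.22 to 0.081 for CYT12, -0.058 to 0.34 for Ebr06G010750 and -0.30 to 0.14 for metacaspase-4. In 90d -P against 90d +P it gave -0.21 to 0.12 for CYT12, -0.31 to 0.44 for Ebr02G027000, -3.71 to 1.43 for metacaspase-9 (positive without 90d +P replicate C), -0.039 to 0.30 for metacaspase-1, -0.16 to 0.020 for Ebr05G015910, -0.32 to 0.072 for metacaspase-4 and -0.32 to 0.024 for ATG8C Ebr06G052430. In 90d +P against 30d +P it gave -0.13 to 0.22 for Ebr05G015910, -0.39 to 0.28 for Ebr05G055090, -0.10 to 0.21 for Ebr06G010750 and -0.20 to 0.14 for Ebr06G052430. Across 55 gene results, 1056 recomputed values kept direction and side of the threshold, 37 lost it, 24 gained it and 35 turned. Depth limits the folds of genes with a group near 0 reads, such as CEP1, XCP1 and the assembled reductase-named gene.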
